A study of Mus musculus with 6 samples.

Results

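Neutrophil and suppressor myeloid cell markers were read in mouse breast tumors through 10 listed genes, namely S100a8, S100a9, Csf3r, Arg1, Nos2, Trem1, Ly6c2, Lcn2, Csf3 and Csf2rb. A gene was taken where a symbol in the deposited count table equaled a listed symbol, and its transcripts were summed. This gave 7 genes of 13730 in all. S100a8, Ly6c2 and Csf3 were not analysed here. Female FVB mice aged 6 to 10 weeks had received 1000000 C0321 cells, a mouse triple-negative breast cancer line, in equal parts of Matrigel and PBS by injection in the mammary fat pad. Once a mass was palpable, mice received SS (sulindac sulfide), dosed orally at 60 mg/kg once daily over 14 days, or formed the Control group. From each group, 3 tumors were sequenced, taken here as 1 per mouse. The sample labels call the drug a sulfate, and the Control treatment is saline in the series text and vehicle in the paper. C0321 is 1 line, from a mammary tumor of an Lfng conditional knockout on the FVB background, so every tumor of both groups carried cells of that origin beside an intact host immune system.

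Myeloid-derived suppressor cells are immature neutrophils and monocytes that build up in tumor-bearing animals and restrain T cells. G-CSF acts through the receptor encoded by Csf3r to drive the production of neutrophils, and GM-CSF acts through a receptor whose signaling chain is encoded by Csf2rb. Arginase 1 and inducible nitric oxide synthase both consume arginine, and they are made by tumor macrophages as well as by suppressor cells. The study counted suppressor cells in such tumors by flow cytometry, and the question addressed here is whether their marker RNAs in whole tumor differed between Control and SS mice.

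Of the 7 genes, only Arg1, Nos2 and Csf2rb were abundant enough to be tested, and none of the 3 differed between SS and Control tumors beyond the spread between mice. S100a9, Csf3r, Trem1 and Lcn2, which are more closely tied to neutrophils, were each at no more than 9 counts in any tumor. By edgeR's quasi-likelihood test, 0 of 3 members reached an unadjusted p under 0.05, where 6.36% of the 10902 genes tested did so (693 genes). No gene passed at an adjusted p under 0.05 in edgeR (0% of genes), and DESeq2 called 35 genes, none of them a member. The values of all 7 members overlapped between the groups, while 12.9% of genes tested had groups that did not overlap. Whole tumor RNA was measured, so fewer cells of a type and less RNA per cell cannot be told apart in any of these values. Levels are given as CPM, counts scaled to the library total with TMM factors. The libraries held from 8468914 to 24441522 counts, so that 3 counts, the least used here as a floor, stood for 0.123 to 0.354 CPM.

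**Figure D1:**
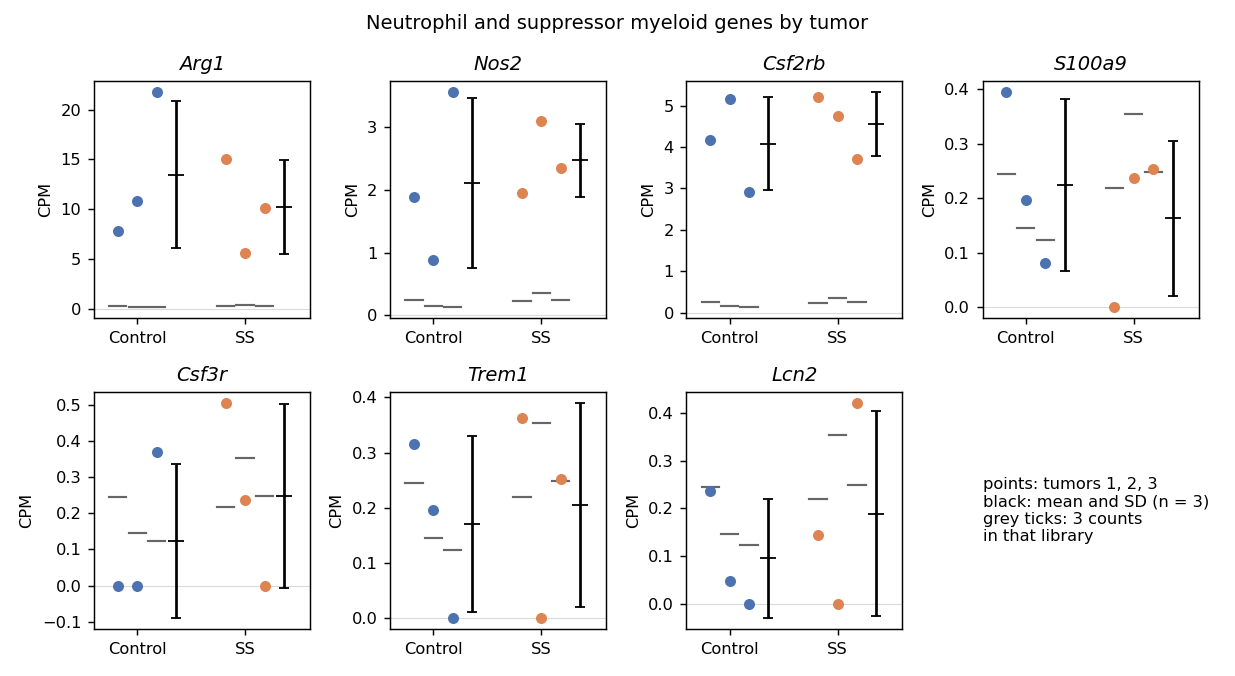
CPM (linear axis) of the 7 genes in each tumor, with points for tumors 1, 2 and 3 of Control (blue) and SS (orange), black bars for the mean and SD (n = 3) and grey ticks for 3 counts in that library. Arg1, Nos2 and Csf2rb lie above the ticks in all 6 tumors, the other 4 genes lie around them, and the 2 groups overlap in each panel. Some SD bars reach below 0, which CPM itself cannot. The ticks were placed without TMM factors.

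Csf2rb encodes the beta chain shared by the receptors for GM-CSF, IL-3 and IL-5. It lies at chr15:78325990-78351002 on the plus strand (GRCm38), and its paralog Csf2rb2, which encodes a beta chain specific to IL-3, lies beside it at chr15:78282508-78305722 on the minus strand. The coding sequences were identical at 2503 of 2628 aligned positions, 95.2%, with a longest identical run of 242 bases. Of the 2614 stretches of 75 bases in the Csf2rb coding sequence, the length of 1 read, 413 (15.8%) also occurred in that of Csf2rb2. Over the whole transcripts, with their untranslated parts, it was 518 of 4690 (11%). A read from a shared stretch can be assigned only where its mate lies outside one. The stretch of 75 aligned coding bases with the most differences, in exon 4 of both genes, is shown to make visible how a read can be told apart, with the 14 differing bases in capitals. The sequences are read 5′ to 3′ on the strand of each gene from GRCm38, at chr15:78338905-78338979 for Csf2rb and chr15:78294352-78294426 for Csf2rb2.
Csf2rb: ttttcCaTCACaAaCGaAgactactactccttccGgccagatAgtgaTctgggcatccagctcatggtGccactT
Csf2rb2: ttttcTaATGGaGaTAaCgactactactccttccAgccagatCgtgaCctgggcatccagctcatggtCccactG

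Csf2rb was at 4.18, 5.16 and 2.91 CPM in Control tumors 1, 2 and 3 and at 5.22, 4.76 and 3.71 CPM in SS tumors 1, 2 and 3, from 40 to 105 counts. The lowest value was in Control 3 and the highest in SS 1, and the groups overlapped. The means were 4.08 ± 1.13 CPM in Control and 4.57 ± 0.772 CPM in SS (SD, n = 3). The log2 fold change of SS against Control was 0.16 with a standard error of 0.33 and a 95% interval from -0.61 to 0.94 (edgeR, p = 0.64, adjusted p = 0.943), and the exact permutation p was 0.6, where 3 against 3 tumors cannot give less than 0.1. The interval includes both a decrease and an increase, and without Control 3 the estimate was -0.03.

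The paralog Csf2rb2 was at 1.18, 1.18 and 0.902 CPM in Control and at 1.81, 1.55 and 1.6 CPM in SS, on between 13 and 25 counts. All SS values lay above all Control values. This separation gave the smallest possible exact permutation p, 0.1, and the log2 fold change was 0.61 ± 0.44 (standard error, edgeR, adjusted p = 0.863). The ratio of Csf2rb to Csf2rb2 counts was 3.53, 4.38 and 3.23 in Control and 2.88, 3.08 and 2.32 in SS. Every SS ratio was below every Control ratio, again with an exact permutation p of 0.1, and this ratio is not among the quantities in the 12.9% given above. Because the shared stretches could be divided differently between the paralogs, the values of Csf2rb, those of Csf2rb2 and their ratio are all uncertain to that extent.

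The deposited table divided the 2 RefSeq transcripts of Csf2rb2 in 2 ways. NM_001287389 stood at 33.2 times NM_007781 in Control 1 and in all SS tumors, and at 0.113 and 0.0844 times in Control 2 and Control 3. The ratio was the same to 3 digits in 4 separate tumors, so no isoform difference was read from it, and the sum over transcripts was used. The alpha chain of the GM-CSF receptor, Csf2ra, was at 1.03, 0.884 and 0.533 CPM in Control and at 1.96, 1.07 and 0.929 CPM in SS, with a log2 fold change of 0.71 ± 0.55 (standard error, edgeR, adjusted p = 0.875). The ratio of Csf2rb to Csf2ra ran from 2.67 to 5.83 over the 6 tumors and did not separate the groups (exact permutation p = 0.2).

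Csf3r encodes the G-CSF receptor of the neutrophil lineage and lies at chr4:126024659-126044976 on the plus strand. It had 0, 0 and 9 counts in Control and 7, 2 and 0 counts in SS. The values were 0, 0 and 0.369 CPM in Control and 0.507, 0.238 and 0 CPM in SS. After rounding, Csf3r was thus found in 1 Control and 2 SS tumors, and both groups summed to 9 counts. With the TMM-scaled library totals, this gave an SS to Control ratio of 1.69 with a 95% exact interval from 0.593 to 4.8. That interval covers counting error and not the spread between mice. The exact permutation p over tumors was 0.7.

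Trem1 encodes an activating receptor of neutrophils and monocytes that amplifies inflammatory signals, and lies at chr17:48232739-48246925 on the plus strand. It had 4, 4 and 0 counts in Control and 5, 0 and 3 counts in SS, which came to 0.316, 0.196 and 0 CPM against 0.362, 0 and 0.253 CPM. A value of 0 occurred once in each group. Both groups summed to 8 counts, for a ratio of 1.69 with a counting interval from 0.552 to 5.16 (exact permutation p over tumors 0.8). Tyrobp, the adaptor through which TREM receptors signal, was at 0.947, 0.638 and 1.11 CPM in Control and at 1.81, 0.357 and 0.338 CPM in SS, and it differed by -0.07 ± 0.75 on the log2 scale (standard error, edgeR, adjusted p = 0.989).

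Arg1, the arginase that splits arginine to ornithine and urea, had the highest level per length of transcript among the members with a known length. It lies at chr10:24915207-24927471 on the minus strand. It was at 7.82, 10.8 and 21.8 CPM in Control tumors 1, 2 and 3 and at 15, 5.6 and 10.1 CPM in SS tumors 1, 2 and 3, on 47 to 532 counts. Control 3 was highest and SS 2 lowest, 3.9-fold apart, and the other 4 tumors lay between them without order by group. The means were 13.5 ± 7.38 CPM in Control and 10.2 ± 4.71 CPM in SS (SD, n = 3). The log2 fold change was -0.39 (standard error 0.46), with a 95% interval from -1.45 to 0.67 (edgeR, p = 0.42, adjusted p = 0.919), and the exact permutation p was 0.6. Without Control 3 the estimate turned to 0.15, and without SS 1 it was -0.77.

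Set against the leukocyte RNA of the same tumor, Arg1 remained variable. Its ratio to Ptprc, which encodes the CD45 antigen of all leukocytes, was 0.122, 0.26 and 0.481 in Control and 0.251, 0.102 and 0.174 in SS. The highest and lowest ratios were in the same tumors as the highest and lowest Arg1 levels, and the exact permutation p was 0.4. Against Csf1r, the receptor that marks monocytes and macrophages, the ratio ran from 0.0156 to 0.05 over the 6 tumors (exact permutation p = 0.4).

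Nos2, inducible nitric oxide synthase, makes nitric oxide from arginine. Its 3 RefSeq transcripts start at positions 78920787, 78924740 and 78925291 of chromosome 11 and end at 78960227, on the plus strand. Nos2 was at 1.89, 0.884 and 3.57 CPM in Control and at 1.96, 3.1 and 2.36 CPM in SS, on 18 to 87 counts. Both the lowest and the highest tumor were Control tumors, and the SS values lay inside that range. The means were 2.12 ± 1.35 CPM in Control and 2.47 ± 0.577 CPM in SS (SD, n = 3). The log2 fold change was 0.21 (standard error 0.56), with a 95% interval from -1.09 to 1.51 (edgeR, p = 0.715, adjusted p = 0.953), and the exact permutation p was 0.8. The estimate was -0.16 without Control 2 and 0.84 without Control 3.

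The deposited split of Nos2 over its transcripts was also fixed in most tumors. NM_001313922 was at 3.55 times NM_001313921 in every tumor, the same to 3 digits. NM_010927, which starts farthest upstream, was estimated at 13.79 counts in Control 3 and at 0.1906 to 0.2965 counts elsewhere. Its ratio to NM_001313921 was 0.857 in Control 3 and 0.0487 in the other 5 tumors. As for Csf2rb2, no isoform difference was read from this split, and the sum over transcripts was used. The ratio of Arg1 to Nos2 counts was 4.12, 12.2 and 6.11 in Control and 7.67, 1.81 and 4.29 in SS. SS 2 had the lowest ratio and Control 2 the highest, and the ratio did not separate the groups (exact permutation p = 0.5).

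**Figure D2:**
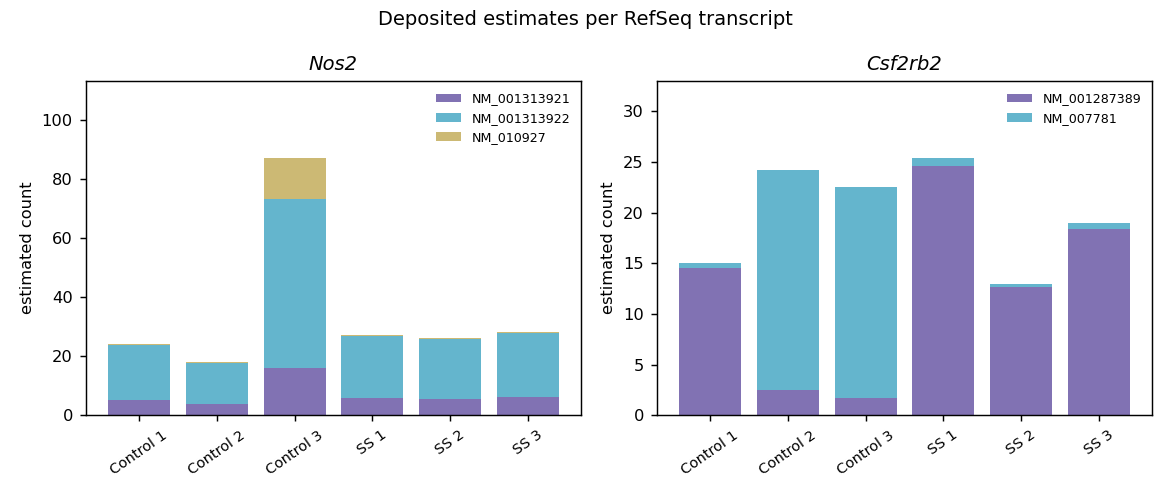
Stacked estimated counts (linear axis from 0) of each RefSeq transcript of Nos2 (left) and Csf2rb2 (right) in the 6 tumors. NM_010927 of Nos2 is visible in Control 3, at 13.79 counts, and the prevailing Csf2rb2 transcript is NM_007781 in Control 2 and Control 3 and NM_001287389 in the other 4 tumors.

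S100a9 encodes a subunit of calprotectin, the calcium-binding alarmin that fills the neutrophil cytosol, and lies at chr3:90692630-90695722 on the minus strand. It had 5, 4 and 2 counts in Control and 0, 2 and 3 counts in SS. The values were 0.395, 0.196 and 0.082 CPM in Control and 0, 0.238 and 0.253 CPM in SS. Tumors of the 2 groups interleaved, with Control 1 highest and SS 1 at 0. The groups summed to 11 and 5 counts, for a ratio of 0.767 with a counting interval from 0.209 to 2.39 (exact permutation p over tumors 0.7). The deposited S100a9 estimates were whole multiples of 0.57 (within 0.001 of a step) in all tumors except Control 1, so these counts are estimates and not whole reads.

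Lcn2 encodes lipocalin 2, a protein of neutrophil granules and inflamed epithelium that binds bacterial iron carriers, and lies at chr2:32384637-32387740 on the minus strand. It had 3, 1 and 0 counts in Control and 2, 0 and 5 counts in SS. The values were 0.237, 0.0491 and 0 CPM against 0.145, 0 and 0.422 CPM. The highest value was in SS 3 and each group held a 0. The groups summed to 4 and 7 counts, for a ratio of 2.95 with a counting interval from 0.751 to 13.8 (exact permutation p over tumors 0.7). Slc22a17, a receptor for lipocalin 2, was at 3.71, 2.85 and 1.23 CPM in Control and at 3.41, 6.43 and 1.94 CPM in SS (edgeR, log2 fold change 0.60, standard error 0.57, adjusted p = 0.898).

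Over the 4 low genes, 16 of 24 values were at or under 3 counts and 8 were at 0. A difference between SS and Control was not detectable at these counts for S100a9, Csf3r, Trem1 or Lcn2. When no filter on low counts was set, edgeR gave them log2 fold changes of -0.44, 0.87, 0.38 and 1.12, with standard errors of 1.38, 1.75, 1.53 and 1.64, values that depend on the prior count. Other genes with short transcripts ranged widely in level in this table. They were chosen after the values of S100a9 were seen. The longest transcript of S100a4, 498 bases against 519 for S100a9, came with 35.4 to 116 CPM, that of S100a10 (685 bases) with 26.6 to 33.9 CPM and that of S100a6 (731 bases) with 794 to 1204 CPM. Lower values were found for S100a11 (511 bases, 1.43 to 2.36 CPM), for the ribosomal protein gene Rps28 (437 bases, 0 to 0.362 CPM) and for B2m, the light chain of MHC class I (860 bases, 1.66 to 3.84 CPM). The part of transcript length in the levels of S100a9 and Lcn2 was not tested.

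Levels of different genes were compared per kilobase of the GENCODE transcript matched to each RefSeq entry, as CPM per kb. Arg1 led with a median of 7.07 CPM per kb (3.79 to 14.8), followed by Csf2rb at 0.939 (0.607 to 1.09), Nos2 at 0.629 (0.257 to 1.01) and S100a9 at 0.45 (0 to 0.761). Lcn2 had a median of 0.106 (0 to 0.461) and Csf3r one of 0.0329 CPM per kb (0.000198 to 0.156). Trem1 had no matched length. Arg1 was above Csf2rb in 6 of 6 tumors. The neighbors further down the order changed places in some tumors: Csf2rb was above Nos2 in 5 of 6, Nos2 above S100a9 in 4, S100a9 above Lcn2 in 5 and Lcn2 above Csf3r in 4. By mean level among all 13730 genes, Arg1 stood at percentile 57, Csf2rb at 42.1 and Nos2 at 33.5, and the 4 low genes between 2.64 and 5.41.

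The profile over the 6 tumors was next compared between genes, as the root-mean-square distance between centered log2 CPM values. The genes most like Arg1 were Slc19a2, Crabp2 and Megf11, at distances of 0.19, 0.20 and 0.22. Those most like Nos2 were Gm32856, Zdhhc14 and Fgfrl1, at 0.20, 0.25 and 0.26. For Csf2rb they were Taf6l, Kpna2 and Dpm3, at 0.09, 0.10 and 0.10. These are descriptions over 6 tumors, picked as the nearest of all genes tested.

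Of 20 listed neutrophil genes, 10 were in the table and 7 were tested. Of these, 1 was higher and 6 were lower in SS, with 0 at an unadjusted p under 0.05 in edgeR and a median log2 fold change of -0.39. The summed level of the list was 52.1, 25.6 and 44.2 CPM in Control and 34.3, 27.9 and 33.2 CPM in SS. The groups overlapped, with Control 2 below every SS tumor. Over all genes tested, 5433 were higher and 5469 lower, 348 and 345 of them at an unadjusted p under 0.05, with a median of -0.001. Cxcr2, the chemokine receptor of mature neutrophils, was at 4.42, 0.835 and 2.17 CPM in Control and at 2.1, 2.02 and 2.11 CPM in SS. The granule enzyme gene Mpo had at most 10 counts, in Control 1, and was at 0 in 1 tumor of each group. The collagenase gene Mmp8 ran from 0.595 to 7.87 CPM and the gelatinase gene Mmp9 from 3.45 to 15.2 CPM, both highest in Control 3, the tumor with the most Arg1 and Nos2. Padi4, the enzyme that citrullinates histones in neutrophils, was named after its values were seen. It was at 3, 2.8 and 2.91 CPM in Control and at 2.61, 2.26 and 1.52 CPM in SS, on 18 to 71 counts. All SS values lay below the narrow range of Control, with the smallest possible exact permutation p, 0.1, and a log2 fold change of -0.44 ± 0.38 (standard error, edgeR, adjusted p = 0.89).

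Ltf, a granule protein gene also expressed in mammary epithelium, was at 8.84, 0.196 and 0 CPM in Control and at 2.32, 4.88 and 0.675 CPM in SS. Control 1 also held the highest summed level of 7 adipocyte genes, 203 CPM against 13.7 to 113 CPM in the other tumors, and of 8 keratinocyte and basal epithelial genes, 152 CPM against 8.1 to 87 CPM. All 7 and all 8 of these genes had a row. Lpl (156 CPM) and Plin1 (37.7 CPM) held most of the adipocyte sum in Control 1. Adipoq and Cidec were highest in SS 2 (0.595 and 0.476 CPM), Krt15 and Krt10 in SS 1 (9.93 and 6.16 CPM). Krt16 and Sprr1a were highest in Control 2 (5.55 and 1.18 CPM), and the other genes of both lists in Control 1. Adipoq was at 0 in Control 3 and SS 3, and Krt1 was at 0 in Control 3, SS 2 and SS 3. S100a9 was highest in the same Control 1, and the part of the adipose and epithelial genes in that value was not tested.

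Markers of monocytes and macrophages did not separate the groups as lists. The summed level of 10 macrophage genes ran from 449 to 571 CPM in Control and from 475 to 571 CPM in SS, with 8 genes higher, 2 lower and 0 at an unadjusted p under 0.05 (edgeR, median log2 fold change 0.15). Adgre1, the F4/80 antigen, was at 10.4 to 11 CPM in Control and 10 to 18.1 CPM in SS (edgeR, log2 fold change 0.50, standard error 0.24, adjusted p = 0.792). Of 11 monocyte genes, 7 were tested, with 2 higher and 5 lower and a median of -0.13. Only Cd14, a coreceptor for lipopolysaccharide, was at an unadjusted p under 0.05. It was at 15.2, 15.1 and 21 CPM in Control and at 10.1, 11 and 13.3 CPM in SS, with all SS values below Control (edgeR, log2 fold change -0.59, standard error 0.21, adjusted p = 0.771). Itgam encodes the CD11b antigen, which the study used with Gr1 for suppressor cells and with F4/80 for tumor macrophages. Its level was 8.53, 13.8 and 18.7 CPM in Control and 11.3, 7.86 and 15.2 CPM in SS (log2 fold change -0.26, standard error 0.34, edgeR, adjusted p = 0.923).

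**Figure D3:**
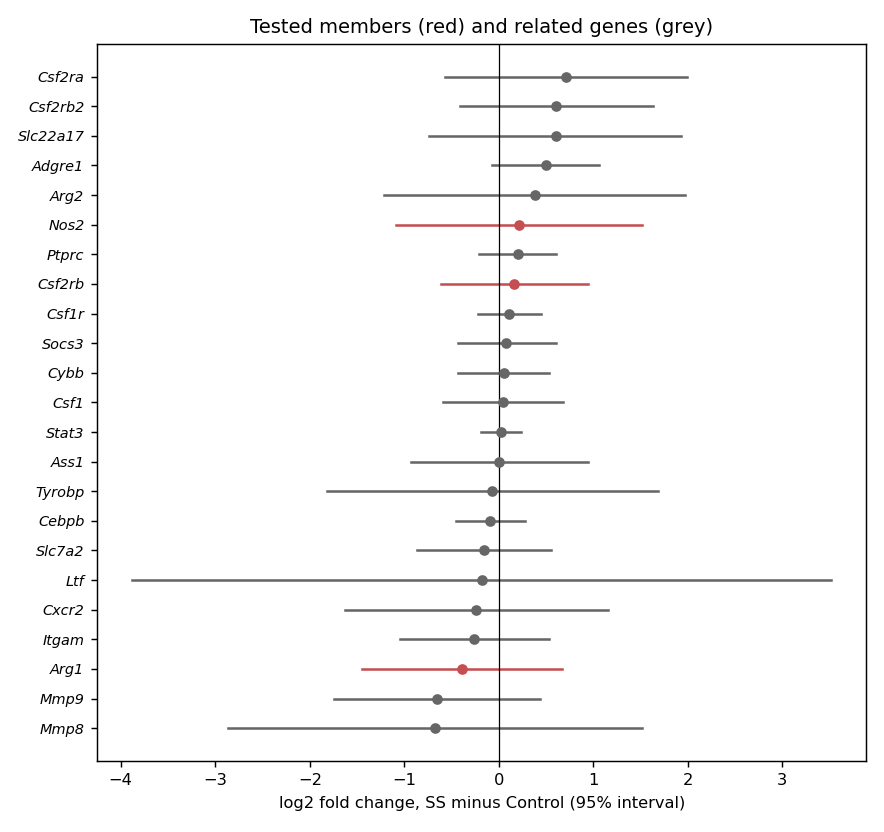
Log2 fold change of SS against Control (points) with 95% intervals from edgeR (lines) for the 3 tested members (red) and 20 related genes (grey), sorted by estimate. The intervals of Arg1, Nos2 and Csf2rb all include 0, as do those of the related genes drawn.

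In the colony-stimulating factor pathway, 16 of 20 listed genes were in the table and 15 were tested. There were 13 higher and 2 lower in SS, with a median log2 fold change of 0.09. Cish, an inhibitor induced by STAT5, was the gene at an unadjusted p of 0.05 when rounded (edgeR, adjusted p = 0.771). It was at 8.61, 4.08 and 5.29 CPM in Control and at 12.1, 9.89 and 8.1 CPM in SS, and the groups overlapped. Stat3, the factor that G-CSF and IL-6 activate, was at 226 to 254 CPM (edgeR, log2 fold change 0.02, standard error 0.09, adjusted p = 0.97). Socs3, its feedback inhibitor, had a log2 fold change of 0.08 (standard error 0.22), and Cebpb, a factor of emergency granulopoiesis, one of -0.09 (standard error 0.16). Csf1, the macrophage growth factor, was at 6.91 to 11.6 CPM (0.04, standard error 0.27) and its receptor Csf1r at 321 to 447 CPM (0.11, standard error 0.14). The GM-CSF gene Csf2 was not analysed here.

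All 12 genes of arginine and nitric oxide metabolism were tested, Arg1 and Nos2 aside from them, with 8 higher and 4 lower and a median log2 fold change of 0.10. Slc7a1, the main arginine transporter of most cells, was the gene at an unadjusted p under 0.05. It was at 14.9, 10.8 and 20 CPM in Control and at 7.61, 8.58 and 9.96 CPM in SS. Every SS value lay below every Control value, and the log2 fold change was -0.81 ± 0.26 (standard error, edgeR, adjusted p = 0.771). Slc7a2, the transporter induced in activated macrophages, was at 53.4 to 121 CPM with its highest value in Control 3 and a log2 fold change of -0.16 (standard error 0.31). The mitochondrial arginase Arg2 was at 0.295 to 2.02 CPM (0.38, standard error 0.69), and Ass1, which remakes arginine from citrulline, at 3.83 to 8.84 CPM (0.00, standard error 0.40). The neuronal synthase gene Nos1, named after its values were seen, had 9, 0 and 4 counts in Control and 17, 20 and 10 counts in SS, and the groups did not overlap in CPM (exact permutation p = 0.1, edgeR, adjusted p = 0.78).

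Of 15 listed genes of other suppressor functions, 12 were tested, with 6 higher, 6 lower and a median log2 fold change of 0.00. The summed level of the list was 1370, 1370 and 1590 CPM in Control and 1300, 1310 and 1240 CPM in SS. All SS sums lay below all Control sums, and Vegfa and Hif1a held most of the total. Vegfa was at 682, 563 and 842 CPM in Control and at 589, 606 and 532 CPM in SS (edgeR, log2 fold change -0.27, standard error 0.15, adjusted p = 0.807). Hif1a, a factor that induces Arg1 and Nos2 in hypoxic myeloid cells, was at 318, 369 and 334 CPM in Control and at 272, 299 and 274 CPM in SS. It was the gene of this list at an unadjusted p under 0.05, with a log2 fold change of -0.27 ± 0.10 (standard error, edgeR, adjusted p = 0.771). Cybb, the catalytic subunit of the phagocyte oxidase, was at 47.6 to 81.4 CPM (log2 fold change 0.05, standard error 0.21).

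In TREM and alarmin signaling, 6 of 13 listed genes were tested, with 4 higher, 2 lower and a median log2 fold change of 0.28. The summed level of the list was 86.7, 83.9 and 70 CPM in Control and 105, 104 and 100 CPM in SS, all SS sums above all Control sums. Syk, a kinase downstream of TREM receptors, and Card9 held most of the total. Syk was at 37.8, 29.4 and 31.1 CPM in Control and at 44.2, 36.8 and 43.1 CPM in SS, and the groups overlapped (edgeR, log2 fold change 0.34, standard error 0.15, adjusted p = 0.771). The lists on suppressor functions and on TREM and alarmin signaling were the 2 of 17 lists (11.8%) whose sums did not overlap between the groups, near the 12.9% of single genes tested. Card9, an adaptor of myeloid receptors, was at 21.5, 22.8 and 14.6 CPM in Control and at 27.8, 30.4 and 27.9 CPM in SS. The groups did not overlap, and the log2 fold change was 0.55 ± 0.19 (standard error, edgeR, adjusted p = 0.771). The calprotectin receptors Tlr4 and Ager were too low to test, Tlr4 at 2 to 9 counts and Ager at 10 counts in SS 1 and 0 elsewhere. Of 10 listed genes of lipocalin and iron handling, 8 were tested, with 5 higher and 3 lower (median 0.05). The transferrin receptor gene Tfrc was the one at an unadjusted p under 0.05, with a log2 fold change of 0.45 ± 0.19 (standard error, edgeR, adjusted p = 0.771).

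Of 15 listed chemoattractant genes, 4 were tested, with 1 higher, 3 lower, 0 at an unadjusted p under 0.05 in edgeR and a median log2 fold change of -0.33. Cxcl2, a ligand of Cxcr2, had at most 8 counts, in Control 3, and was at 0 in SS 1. Of the Ly6 family, Ly6a had at most 5 counts. Ly6g, Ly6c1, Elane, Pglyrp1, Cxcl1 and Cxcl5 were not analysed here.

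Across the whole series, erythroid genes were lower in SS for 5 of 5 tested, 4 of them (Hba-a1, Hba-a2, Hbb-bt and Alas2) at an unadjusted p under 0.05 in edgeR (median log2 fold change -1.05), and their summed level was 1890 to 3920 CPM in Control and 852 to 1930 CPM in SS. The globin copies are near-identical, so how counts were split between them is uncertain. Of 6 pan-leukocyte genes, 4 were higher and 2 lower, and the summed level was 308 to 323 CPM in Control and 295 to 365 CPM in SS. Ptprc was at 41.3 to 64.1 CPM (log2 fold change 0.20, standard error 0.17, edgeR, adjusted p = 0.89). At an unadjusted p under 0.05, Krt18 was lower among 6 luminal epithelial genes and Esam was higher among 4 endothelial genes tested. Cd3e was the T cell gene tested, at 4.05 to 45.8 CPM, highest in Control 1.

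The dependence of the 3 tested members on single tumors is shown by leaving out each in turn. Removing Control 3 turned the sign of the Arg1 and Csf2rb estimates and raised that of Nos2, and removing Control 2 turned that of Nos2. No member reached an unadjusted p under 0.05 in edgeR in any of these 6 fits.

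**Figure D4:**
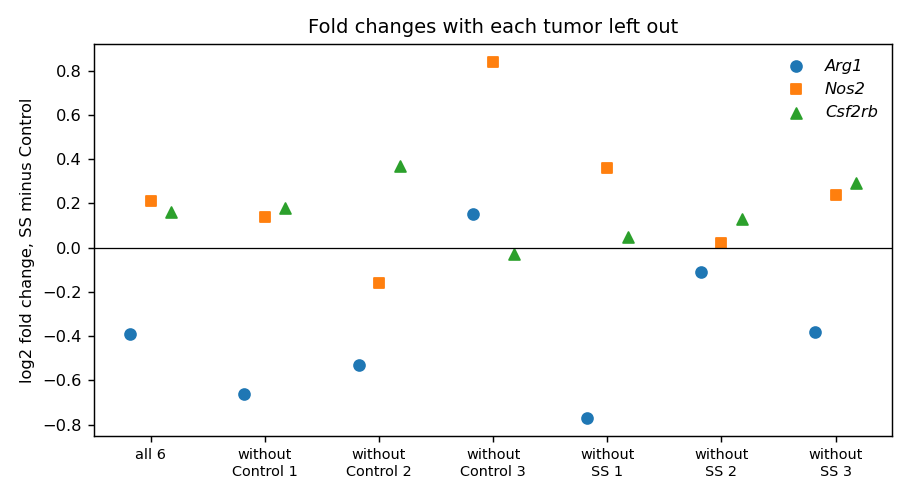
Log2 fold change of SS against Control (linear axis) for Arg1, Nos2 and Csf2rb with all 6 tumors and with each tumor left out. Arg1 ranges from -0.77 to 0.15, Nos2 from -0.16 to 0.84 and Csf2rb from -0.03 to 0.37, so each of the 3 genes has estimates on both sides of 0.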

How the data were processed

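Stranded libraries of polyadenylated RNA from 6 tumors, read in pairs of 75 nucleotides, gave estimated counts (expected counts) per RefSeq transcript, which the authors deposited without normalization after removal of very low entries. The submitters' processing notes name CASAVA 1.8.1, Bowtie2 2.2.5, STAR 2.5.3a and mm10, with no role or order. The counting tool is not given in the sources used here. The table held 20648 transcripts, each with at least 10 counts over the 6 tumors.

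Estimated counts were summed by gene symbol, with 21 date-like symbols restored from transcript accessions, and rounded. All value columns were mapped to a sample by name. The 10902 genes that passed edgeR's filter (filterByExpr) were scaled by TMM, with factors from 0.981 to 1.03, and fitted in edgeR 4.0.16 (R 4.3.3) by the quasi-likelihood test with Benjamini-Hochberg adjustment, all 6 tumors in 1 model. The common biological coefficient of variation was 0.323. Each standard error was taken as the estimated log2 difference over the root of its F statistic. Exact permutation tests were two-sided on mean CPM, or on the mean ratio, and are not adjusted for the number of genes. Pooled ratios carry exact 95% intervals for counting error only. Replicates were taken as separate mice, which the methods do not state for the sequenced tumors.

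Alternatives were RLE scaling, DESeq2 1.42.0, quantile normalization with limma 3.58.1 (the normalization the study's methods name), no filter and a stricter filter, the replicate number as a block, each tumor left out, and thinning to 8468948 counts, the smallest library total after rounding by gene (8468914 before). The edgeR script was tested on simulated data. All listed members and fixed related genes are named, and from the gene lists those at an unadjusted p under 0.05, and the other genes named from these lists or for their transcript length were chosen after their values were seen. The members and lists were chosen with earlier results of these data known. Coordinates are those of the deposited table. Sequences and transcript lengths are from GENCODE on GRCm38, the same build.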

Additional observations from a re-analysis of the deposited data

How the results depend on the processing

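Under 13 alternatives, 0 genes were called at an adjusted p under 0.05 in 12, and the DESeq2 Wald test called 35; the cause was not tested. The number of genes at an unadjusted p under 0.05 stayed within 1.5 times the 693 reported, from 520 to 877, with both ends from leaving out 1 Control tumor. No alternative brought Arg1, Nos2 or Csf2rb to an unadjusted p under 0.05. Leaving out each tumor in turn gave log2 fold changes of -0.77 to 0.15 for Arg1, -0.16 to 0.84 for Nos2 and -0.03 to 0.37 for Csf2rb. The sign turned for Arg1 (0.15) and Csf2rb (-0.03) without Control 3 and for Nos2 (-0.16) without Control 2. It was kept for each of the 3 genes under the other 7 alternatives. Tumors with the same number come from different mice, and the deviations of same-numbered tumors correlated at 0.116, 0.021 and 0.077 over genes, so the numbers were not taken to pair the samples. With the replicate block the log2 fold changes were -0.38 for Arg1, 0.38 for Nos2 and 0.19 for Csf2rb, and 643 genes were at an unadjusted p under 0.05. Low counts limit S100a9, Csf3r, Trem1 and Lcn2, for which no tumor held more than 9 counts. With 3 tumors per group, the exact permutation p cannot go below 0.1.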
